A study of Mus musculus with 7 samples.

Results

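Mouse myogenic progenitor cells were compared between 2 states that both lie in growth medium: day 0 of a differentiation course, just before the switch to low serum, and day 2 of a proliferation culture. All 375 miRNA assays of the 381 assays on the card were members, chosen because they detect a miRNA and not for their values, and they were followed in 8 of the 24 rows of threshold cycles (Ct) that the study holds. Of these assays, 335 detect mouse sequences and 40 rat sequences. The rows are the 4 values per assay and day, numbered here by position, and n = 4 rows on each day throughout unless a smaller number is given.

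The cells were primary cultures at passage 3 from hind limb muscle of C57BL/6J mice, with no genetic change named in the labels. Their growth medium, Ham's F-10 with 20% FBS and 10 ng/ml FGF-2, was shared by both days. The day 0 cells had been seeded at 400000 per 60 mm dish coated with entactin, collagen IV and laminin (ECL, 5 µg/cm2), and had adhered for 24 h. The day 2 cells had been plated at 500000 per T25 flask on type I collagen. The deposited pairs set each of these days against other days only. The comparison shows how far the starting point of the differentiation course and the first sampled day of the proliferation course differed in their miRNAs. Substrate, vessel, seeding number and time since plating changed together between the days and cannot be told apart. The sample records used here name no assay run, so a difference of run, if any, cannot be told apart from them either. Whether the 4 rows came from separate cultures or from repeated wells is not given in the labels. Each p-value is therefore judged against row-to-row spread that could be purely technical.

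A mature miRNA guides Argonaute to messenger RNAs that match its seed, the bases near its 5′ end, and lowers their stability and translation. In skeletal muscle, miR-1 and miR-133 are made from shared primary transcripts under myogenic transcription factors, and others lie in introns of myosin heavy chain genes. These muscle miRNAs are known to rise as myoblasts leave the cell cycle and fuse, and miR-682 has been reported to act on the proliferation of myogenic progenitor cells.

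The sequences of the miRNAs on which the comparison turns follow, 5′ to 3′, as RefSeq gives them for GRCm38.p6, with the seed (bases 2 to 8) in capitals. The assay names often carry no arm, and the arm shown is the one that bore the plain name before arms were added. Of 15 assays looked up 12 had an entry, and miR-598, miR-328 and miR-486 are named only. The mature miR-682 lies at chr13:75645119-75645139 on the plus strand, within Gm4149, and it was the lower one on day 0.
miR-682: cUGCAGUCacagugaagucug
The higher ones were miR-203, at chr12:112130927-112130948 on the plus strand, and miR-208b, at chr14:54975710-54975731 on the minus strand within Myh7.
miR-203-3p: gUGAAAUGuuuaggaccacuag
miR-208b-3p: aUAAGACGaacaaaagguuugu
Shown for comparison are miR-208a, which lies within Myh6 and was the only other entry with the seed of miR-208b, and miR-499, which lies within Myh7b and has a seed of its own.
miR-208a-3p: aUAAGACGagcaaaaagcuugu
miR-499-5p: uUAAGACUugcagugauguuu
The last 3 passed the test against the median miRNA assay but not against the control RNA MammU6, where they lay in the same direction. Of these, miR-504 (within Fgf13 on chromosome X) and miR-128 (within R3hdm1 on chromosome 1 and Arpp21 on chromosome 9) were higher on day 0, and miR-494 (chromosome 12) was lower.
miR-504-5p: aGACCCUGgucugcacucuauc
miR-128-3p: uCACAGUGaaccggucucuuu
miR-494-3p: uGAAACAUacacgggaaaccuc
Each of miR-682, miR-203, miR-499, miR-504, miR-128 and miR-494 had a seed that no other mouse RefSeq entry had. Among the called miRNAs with an entry, none shared its seed with another called one. The seeds of miR-598, miR-328 and miR-486 could not be compared.

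A level is the Ct of the small nuclear RNA MammU6 minus the Ct of the miRNA in the same row, so that 1 unit is 1 cycle, or about 2-fold, and a higher value is more miRNA. A difference is the mean level on day 0 minus that on day 2, with its SE from limma. Of the 375 assays, 226 had a Ct in all 8 rows, 91 in none and 58 in some. An assay was tested with a Ct in at least 3 rows of both days and a mean Ct under 35 on at least 1 of them, which 240 assays met (229 mouse, 11 rat) and 135 did not. A row had a Ct for 251 to 260 assays on day 0 and for 248 to 257 on day 2, and the earliest and latest miRNA Ct of the 8 rows were 13.82 and 39.91. No row had a Ct for the plant miRNA that serves as the negative control. MammU6 came at Ct 13.81, 12.69, 13.05 and 12.36 in rows 1 to 4 of day 0 and at 12.43, 13.61, 12.64 and 12.72 on day 2. It was latest in row 1 of day 0 and in row 2 of day 2. Every difference was therefore computed again against the row median, the median Ct in that row of the 221 miRNA assays with a Ct in all 24 rows.

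**Figure D1:**
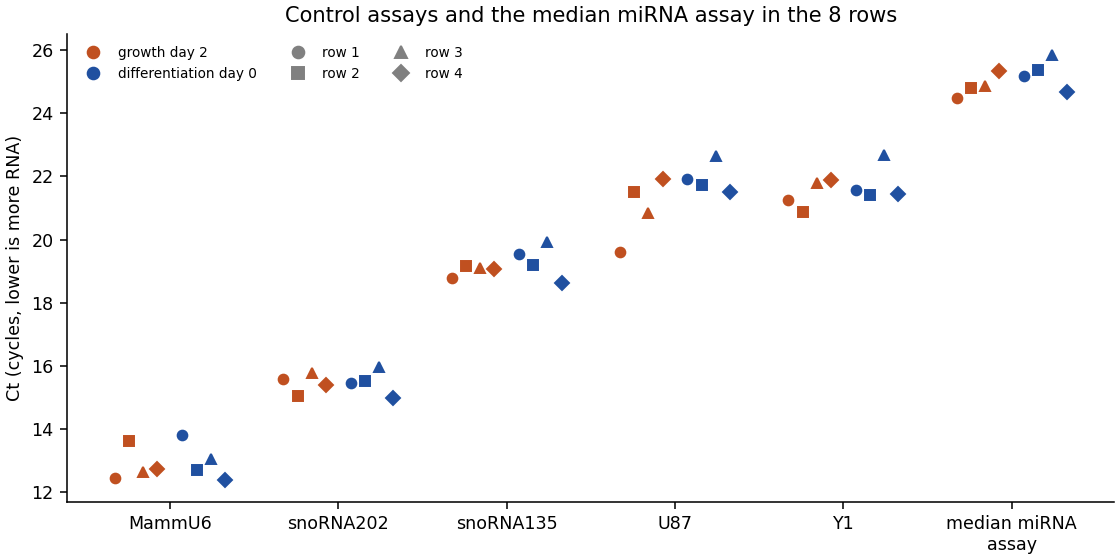
Ct in cycles (vertical axis, lower is more RNA) of MammU6, the other 4 control assays and the median miRNA assay in the 4 rows of growth day 2 (orange) and of differentiation day 0 (blue), 1 symbol per row. The days overlap for each of them, and U87 in rows 1, 2 and 3 of day 2 (Ct 19.62, 21.51 and 20.85) lies earlier than in every row of day 0 (21.52 to 22.66).

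None of the other 4 control assays, 0 of 4, passed against MammU6 (limma, adjusted over the 4), nor did any at an unadjusted p under 0.05. The differences were −0.16 ± 0.35 for snoRNA135, 0.11 ± 0.44 for snoRNA202, −0.85 ± 0.45 for U87 (adjusted p = 0.276) and −0.19 ± 0.52 for Y1. MammU6 itself lay 0.27 ± 0.38 higher on day 0 against the row median. U87 lay at −0.58 ± 0.26 there (limma, unadjusted p = 0.0378, adjusted p = 0.184 over the 5 controls). None of these differences passed after adjustment, and that of U87 was the widest. Rows 1 and 3 of day 2 were the most alike of that day, without forming a clean split from rows 2 and 4. Over the 221 assays, the median-centred differences had an SD of 0.591 between rows 1 and 3 and of 0.704 between rows 2 and 4. For the mixed pairs it was 1.09 (rows 1 and 2), 0.994 (1 and 4), 0.947 (2 and 3) and 0.758 (3 and 4), and on day 0 it reached 0.884. In level against the row median, both of rows 1 and 3 were above both of rows 2 and 4 by at least 1 for 13 of the 229 assays with a Ct in all 4 rows, and below them for 7. Results are also given without rows 1 and 3 of day 2, an alternative chosen after the data were seen.

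Row position carried over from day to day within a course. MammU6 was latest in row 1 on all 4 differentiation days, at 13.81, 13.25, 13.85 and 13.69, and in row 2 on both growth days, at 13.61 and 13.64. Each of the 4 rows of day 0 was closest to the row of the same position on differentiation day 1, at an SD of 0.610 to 0.801 over the 221 assays, while 2 of 4 rows of growth day 2 were closest to their own position on growth day 5. The fit treats the 24 rows as independent. With row position within a course as a random block, added after the data were seen, the estimated correlation of rows of one position was 0.65 against MammU6 and 0.43 against the row median.

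Few miRNAs passed the test between the 2 days. Against MammU6, 4 of 240 assays (1.67%) passed at an adjusted p under 0.05: miR-203, miR-208b and miR-598 were higher on day 0 (3 assays, 1.25%), and miR-682 was lower (1 assay, 0.417%). With the row median as reference 12 assays (5%) passed, 10 higher (4.17%) and 2 lower (0.833%), and the same 4 were among them. With the random block 2 passed against MammU6, miR-203 (adjusted p = 0.0469) and miR-682 (adjusted p = 0.0469), and 10 passed against the row median, the same 4 among them. At an unadjusted p under 0.05 there were 23 against MammU6 (9 higher, 14 lower) and 49 against the row median (30 higher, 19 lower). The median difference of the 240 assays was −0.18 against MammU6, with quartiles at −0.47 and 0.19, and 0.11 against the row median, with quartiles at −0.18 and 0.47. For an assay with a Ct in all rows the references differ by the constant 0.27, so the sign of small differences depends on the reference. The median SE was 0.45 against MammU6 and 0.32 against the row median.

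**Figure D2:**
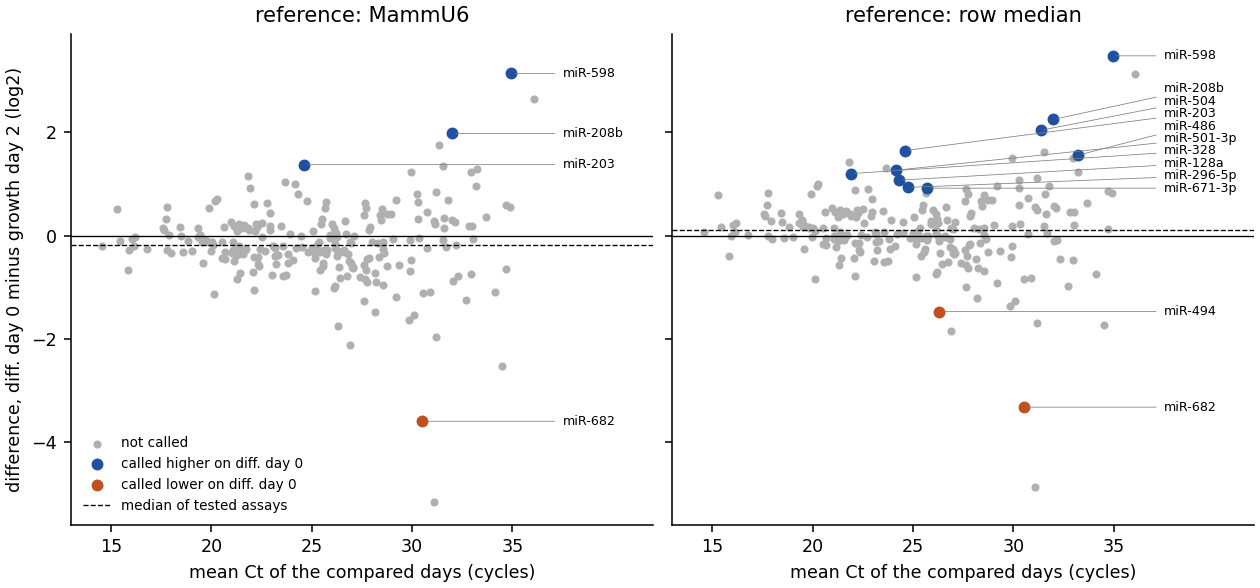
Difference between differentiation day 0 and growth day 2 (log2, vertical axis) against the mean Ct of the compared days (horizontal axis, cycles) for the 240 tested assays, against MammU6 (left) and the row median (right), with called assays coloured and named. The dashed lines are the medians, −0.18 and 0.11, and 4 and 12 assays are called.

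The precision of 4 rows set how small a difference could be bounded. The 95% interval of the difference lay within 2-fold either way for 55 of 240 assays against MammU6 and for 118 against the row median. It lay within 4-fold for 192 and 205. A difference of at least 2-fold was measured for 30 and 26 assays, most of which did not pass. Rows of the 2 days failed to overlap, with day 0 above, for 5 assays against MammU6 (2.08%) and 12 against the row median (5%). With day 0 below, this held for 3 (1.25%) and 8 (3.33%). The 5 were miR-203, both assays of miR-351, miR-685 and miR-370, and the 3 were miR-682, miR-193 and miR-330, named here after their values were seen.

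miR-682 had the largest difference of the assays that passed against MammU6. Its level was −17.85, −20.74, −20.08 and −18.88 in rows 1 to 4 of day 0, at Ct 31.66 to 33.43. On day 2 it was −14.69, −15.56, −16.02 and −16.92, at Ct 27.12 to 29.64. Every row of day 2 was above every row of day 0. The difference was −3.59 ± 0.65 (limma, adjusted p = 0.00276), or 12-fold lower on day 0, with a 95% interval from −4.92 to −2.26. Against the row median it was −3.32 ± 0.60 (adjusted p = 0.00193), again with no overlap. It passed with each of the 8 rows left out in turn, at −4.10 to −3.14, and against 7 of 7 other references, at −3.70 to −2.74. Without rows 1 and 3 of day 2 it was −3.15 and did not pass (adjusted p = 0.0651). Among the other days, which are a description here, growth day 5 had a mean level of −17.94 ± 0.50 (SD), and differentiation days 1, 2 and 5 had −19.51 ± 1.28, −19.58 ± 0.93 and −19.41 ± 0.74. The mean of differentiation day 0, at −19.39 ± 1.28 (SD), was thus nearer to those of the low-serum days than to those of the growth days, although row 1, at −17.85, lay among the rows of growth day 5.

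miR-203, known from skin for holding back the proliferation of keratinocytes, had the earliest Ct of the 4. Its level was −11.14, −11.47, −10.90 and −10.51 in the rows of day 0. On day 2 it was −12.46, −12.09, −12.80 and −12.16. The lowest row of day 0 was above the highest row of day 2. The difference was 1.37 ± 0.32 (adjusted p = 0.0282), or 2.59-fold, and 1.65 ± 0.37 against the row median (adjusted p = 0.0118), where row 1 of day 0 overlapped row 4 of day 2. The mean Ct was 24.0 on day 0 and 25.2 on day 2, so these wells were far from the last cycles. On growth day 5 the mean level was −12.09 ± 0.41 (SD), and on differentiation days 1, 2 and 5 it lay between −11.66 and −11.58. Day 0 had the highest mean of the 6 days. The call against MammU6 was lost when rows 1, 3 or 4 of day 0 (1.42, 1.34 and 1.21) or rows 1 or 3 of day 2 (1.35 and 1.23) were left out, with an adjusted p of at most 0.162. It passed against 4 of 7 other references, and was lost against snoRNA202 (1.27, adjusted p = 0.0648), Y1 (1.56, adjusted p = 0.139) and the day mean of MammU6 (adjusted p = 0.0918). It was also lost with the 8 rows alone (adjusted p = 0.344) and with a mean Ct under 32 (adjusted p = 0.0604), so that it held in 15 of 28 alternatives in all. Of the 8 rows left out in turn with the row median, the loss of the call came with row 3 of day 0 (1.44, adjusted p = 0.0506).

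miR-203 was also on the list of epithelial markers, and no other marker on that list passed. Of its 7 assays 3 could be tested. miR-200c lay at 0.33 ± 0.52 and miR-205 at −1.11 ± 0.55, neither of which passed. miR-200a, miR-200b and miR-429, which with miR-200c define epithelium, had no Ct in any of the 8 rows, and miR-141 had one at 39.31 in 1 row of day 2. The summed level of the list, carried by miR-203, ran from −11.45 to −10.48 on day 0 and from −12.65 to −11.97 on day 2.

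miR-208b, a miRNA of an intron of the slow myosin gene Myh7, was measured late in the run, at a mean Ct of 31.1 on day 0 and 32.9 on day 2. Its level was −18.11, −18.98, −17.95 and −17.35 in the rows of day 0. On day 2 it was −18.90, −20.80, −19.42 and −21.17. Row 2 of day 0 lay just below row 1 of day 2, and the other rows did not overlap. The difference was 1.98 ± 0.49 (adjusted p = 0.0282), or 3.93-fold, and 2.25 ± 0.57 against the row median (adjusted p = 0.0210), where the days did not overlap. The mean level on growth day 5 was −16.50 ± 0.32 (SD), above that of every differentiation day, of which day 5 had −17.05 ± 0.61. Growth day 2 was thus the low point of the 6 days for this miRNA. The call against MammU6 was lost without rows 1, 3 or 4 of day 0 (1.98, 1.93 and 1.73) and without rows 2 or 4 of day 2 (1.73 and 1.61). Against the row median it was lost without rows 3 or 4 of day 0 (2.03 and 1.99) and rows 2 or 4 of day 2 (1.73 and 2.08). With MammU6 replaced it passed against 3 of 7 other references, and it held in 13 of 27 alternatives in all. Against MammU6 it was also lost with the 8 rows alone (adjusted p = 0.344) and with the random block (adjusted p = 0.140). The assay of miR-208a, which shares the seed, had a Ct in 1 of the 8 rows, at 38.91.

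miR-598 was the latest of the 4 to be detected. Its level was −19.30, −20.47, −22.46 and −19.48 on day 0, at Ct 31.84 to 35.51. On day 2 it was −24.41, −21.35 and −24.93 in rows 1, 2 and 4, at Ct 34.96 to 37.65, and row 3 had no Ct and was left out of the fit. Row 3 of day 0 overlapped row 2 of day 2. The difference was 3.14 ± 0.75 (4 against 3 rows, adjusted p = 0.0282), or 8.79-fold, and 3.48 ± 0.57 against the row median (adjusted p = 0.00159), where the rows did not overlap. An assay for the opposite arm, of the rat sequence of miR-598-5p, was too late to test: it had a Ct of 39.33, 36.99 and 36.61 in rows 2 to 4 of day 0 and none in the 4 rows of day 2. Growth day 5 had a mean level of −19.07 ± 0.52 (SD) and differentiation day 5 one of −16.79 ± 0.46, so that growth day 2 was again the lowest of the 6 days. Of the 5 rows that could be left out, the call against MammU6 was lost without rows 1 or 4 of day 0 (2.76 and 2.82) and held for the other 3. Without row 1, 2 or 4 of day 2 only 2 Ct values remained there and the assay was not tested. It held against 7 of 7 other references and in 15 of 22 alternatives in all, and against MammU6 it was also lost with the 8 rows alone (adjusted p = 0.344) and with the random block (adjusted p = 0.140).

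**Figure D3:**
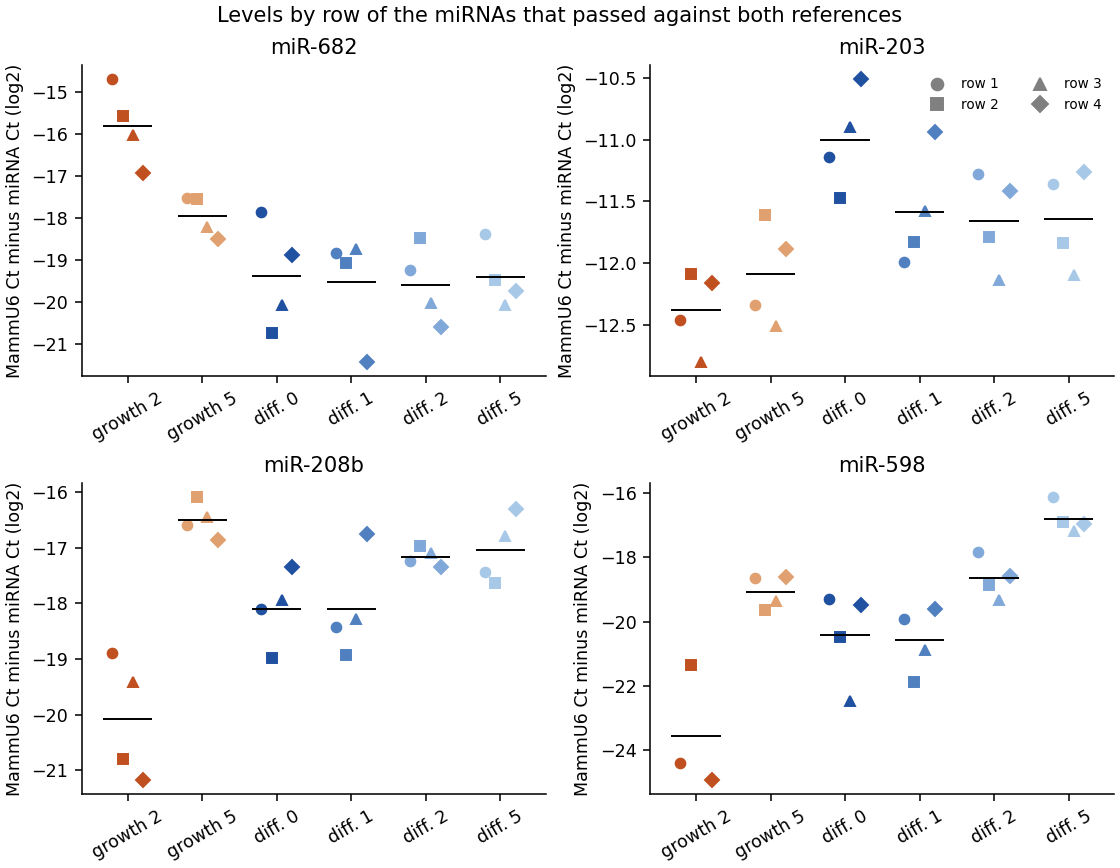
Level against MammU6 (log2, vertical axis) by row on the 6 days (horizontal axis) for miR-682, miR-203, miR-208b and miR-598, with the 4 symbols for rows 1 to 4 and a black line at the mean of each day. miR-682 is highest on growth day 2 and miR-203 on differentiation day 0, while miR-208b and miR-598 are lowest on growth day 2.

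The muscle-restricted miRNAs were measured somewhat higher on day 0, mostly within the spread of the rows. All 6 of its assays were measured, and all 6 had a positive difference against both references, with a median of 0.56 against MammU6 (median of all tested assays −0.18) and of 0.83 against the row median (0.11). Of the 6, 1 passed against MammU6 (miR-208b) and 2 against the row median (miR-208b and miR-486), while 2 and 5 had an unadjusted p under 0.05. Of all 240 assays 4 (1.67%) and 12 (5%) passed, 23 and 49 had an unadjusted p under 0.05, and 88 and 140 were positive. miR-133a, with the earliest Ct of the list, had levels of −1.76, −2.67, −2.17 and −1.92 on day 0 and of −2.23, −2.77, −2.64 and −2.95 on day 2. The rows overlapped, and the difference of 0.52 ± 0.32 did not pass (adjusted p = 0.645). miR-1, which is made with miR-133a, lay at 0.60 ± 0.44 (adjusted p = 0.716), and a second assay, of the rat sequence, at 0.68 ± 0.43. The interval of miR-1 ran from −0.31 to 1.51 and that of miR-133a from −0.15 to 1.19, and against the row median that of miR-1 ran from 0.10 to 1.65.

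Of the other 3 members, miR-486 differed most. miR-133b lay at 0.32 ± 0.41 against MammU6. Its 4 rows of day 0 were above those of day 2 against the row median, at 0.60 ± 0.23, but it did not pass (adjusted p = 0.126). miR-486, a muscle-enriched miRNA, had levels of −19.34, −19.63, −21.18 and −18.60 on day 0 and of −21.03, −19.19, −21.85 and −21.82 on day 2. Row 2 of day 2 was among the highest of the 8. Its difference was 1.29 ± 0.58 (adjusted p = 0.415), and 1.56 ± 0.44 against the row median (adjusted p = 0.0440). That call was lost with the random block (adjusted p = 0.0564), without rows 2 or 4 of day 0 (1.40 and 1.19) and without rows 1, 3 or 4 of day 2 (1.55, 1.33 and 1.47). miR-499 lay at 0.19 ± 0.75, and the sign turned without some rows: it was −0.43 and −0.03 when row 1 or row 4 of day 0 was left out, and −0.25 when row 4 of day 2 was. Its level ran from −21.95 to −18.15 over the rows of day 0 and from −21.51 to −18.69 over those of day 2, far wider than the difference between the days.

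**Figure D4:**
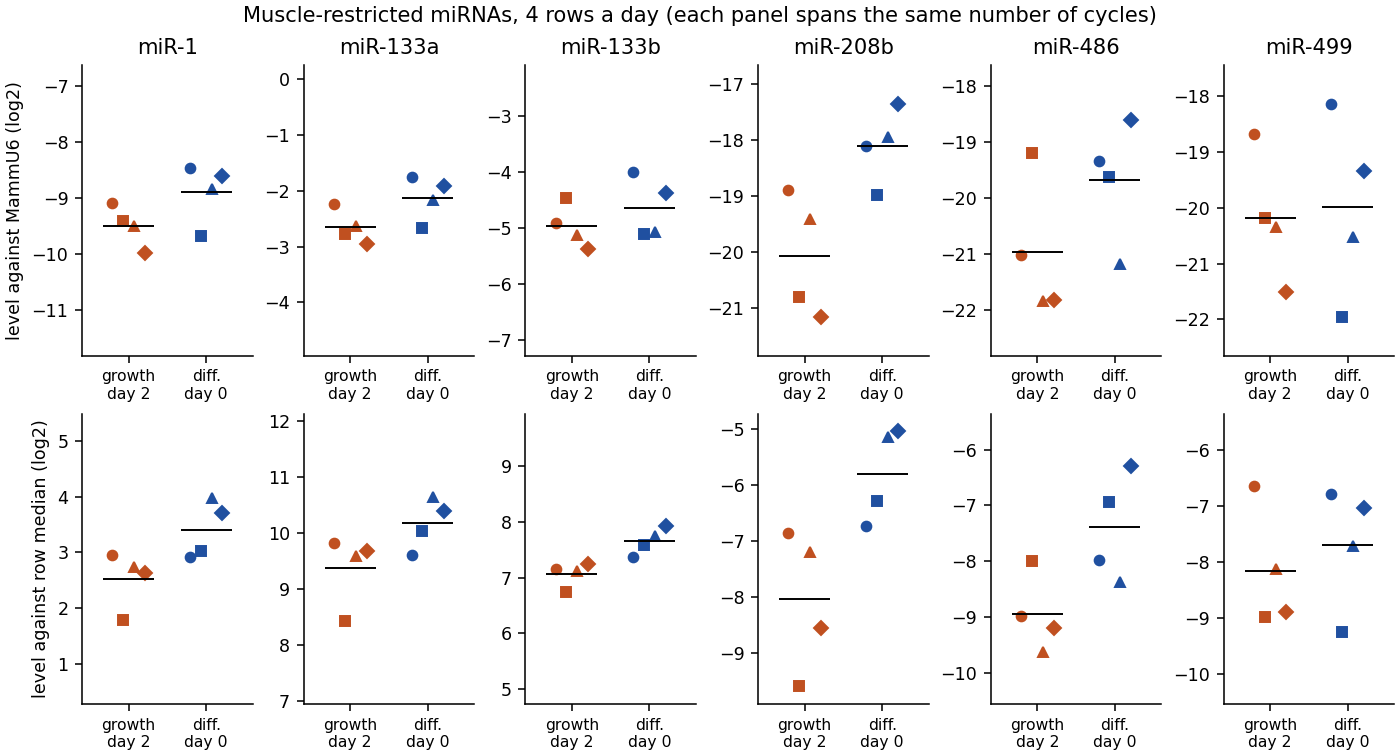
Levels (log2, vertical axes) of the 6 muscle-restricted miRNAs in the 4 rows of growth day 2 (orange) and differentiation day 0 (blue), against MammU6 (top) and the row median (bottom), with a line at each mean. The day 0 mean is the higher in every panel, and the rows of the days are apart only for miR-208b and miR-133b against the row median.

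A further 8 miRNAs passed against the row median but not against MammU6. Of the 7 that were higher, miR-504 differed most: its level against the row median was −5.14, −5.12, −6.12 and −4.43 on day 0 and −7.09, −8.11 and −6.52 in rows 2 to 4 of day 2, row 1 having no Ct. The days did not overlap, and the difference was 2.04 ± 0.39 (4 against 3 rows, adjusted p = 0.00280). miR-128a, known as a brain-enriched miRNA, was at 1.11, 1.24, 1.44 and 1.40 on day 0 and at 0.01, 0.21, 0.06 and 0.62 on day 2. Among the 12 calls it had the smallest SE, with a difference of 1.07 ± 0.21 (adjusted p = 0.00280), and it passed with each of the 8 rows left out. With the 8 rows alone 0 of 240 assays passed as higher against the row median, so the calls of miR-504 and miR-128a were lost. Against MammU6 neither passed, at 1.76 ± 0.55 (adjusted p = 0.169) and 0.80 ± 0.43 (adjusted p = 0.591). Of the 7 other references, the row median among them, miR-504 passed against 7, miR-501-3p against 5 and miR-128a against 4. miR-296-5p, miR-328 and miR-671-3p passed against 3, and miR-486 and miR-494 against 2.

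The other 5 higher ones were smaller or less steady. miR-501-3p, from an intron of Clcn5, differed by 1.27 ± 0.30, and the call was lost without row 3 of day 0 (1.15) and rows 1 or 3 of day 2 (0.97 and 1.12). miR-296-5p lay at 0.93 ± 0.23 and its other arm, miR-296-3p, at 0.13 ± 0.66 with 3 rows on each day. miR-671-3p lay at 0.92 ± 0.23 and miR-328 at 1.20 ± 0.34. The calls of miR-296-5p and miR-671-3p were lost without rows 2 or 3 of day 0 and without rows 1 or 3 of day 2, at 0.77 to 0.92 and 0.74 to 0.87. That of miR-328 was lost without these and without row 1 of day 0, at 0.83 to 1.23, and with the random block (adjusted p = 0.0564).

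miR-494, a miRNA of the imprinted Dlk1-Dio3 domain, was the one further miRNA that was lower. Against the row median it was at −1.13, −2.30, −2.17 and −2.21 on day 0 and at −0.47, −0.48, 0.48 and −1.47 on day 2. Row 1 of day 0 overlapped row 4 of day 2. The difference was −1.47 ± 0.40 (adjusted p = 0.0382), and −1.74 ± 0.67 against MammU6 (adjusted p = 0.292). The call was lost with any of 6 rows left out, at −1.47 to −1.15, all but row 1 of day 0 and row 4 of day 2.

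Of the 45 assays on the Dlk1-Dio3 list 29 could be tested, and miR-494 was the only one that passed, against the row median. Their median difference was −0.13 against MammU6 and 0.15 against the row median, close to the medians of all assays. Of the 29, 19 were negative against MammU6 and 13 against the row median, near the shares of all 240 assays (151 and 100 negative). Against the row median 5% of all assays passed. miR-382 lay at −2.12 ± 0.84 and miR-381 at 1.34 ± 0.46 in the opposite direction, neither of which passed. The list left out miR-134, also of this domain, which lay at −0.54 ± 0.41 against MammU6 and passed under neither reference. Members of this one domain lay on both sides, as did the tested assays as a whole.

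The next lists are read against all 240 assays, of which 1.67% passed against MammU6 and 5% against the row median, and of which 151 and 100 were negative. Of the cluster that runs from miR-17 to miR-92a and its paralog clusters, known to promote proliferation, 11 assays were tested, with 0 past the threshold under either reference (limma; 0 and 1 at an unadjusted p under 0.05), with medians of −0.07 and 0.21. miR-17 lay at −0.21 ± 0.30 and miR-92a at 0.56 ± 0.36. In the family of miR-15 and miR-16, known to lower cyclins, 0 of 7 passed (1 and 0 unadjusted), with miR-16 at −0.29 ± 0.29 and miR-15a at −1.27 ± 0.50. miR-221 and miR-222, known to act on the inhibitor p27, lay at −0.02 ± 0.49 and −0.11 ± 0.32. In the family of miR-34a, miR-34b, miR-34c and miR-449a, members of which p53 is known to induce, 0 of 4 passed (0 and 2 unadjusted) and all 4 were negative under both references, from −0.83 to −0.32 against MammU6, as 151 and 100 of all 240 assays were. For miR-34a the difference was −0.72 ± 0.45.

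let-7, miR-29, the transcript of miR-322 and the Sfmbt2 cluster come next. In the let-7 family 0 of 9 passed (0 and 1 unadjusted), with let-7i at −0.84 ± 0.49 and let-7f at 0.54 ± 0.63. In the miR-29 family, known for its collagen targets, 0 of 3 passed (0 and 2 unadjusted) and all 3 were negative under both references, with miR-29b at −1.01 ± 0.53 and miR-29a at −0.67 ± 0.44. Among the 6 tested assays of the transcript that carries miR-322, miR-503, miR-351, miR-542 and miR-450, 0 passed (1 and 1 unadjusted). miR-351 lay at 1.03 ± 0.39 and its second assay at 0.63 ± 0.33, with day 0 above day 2 in every row for both, while against the row median the rows overlapped. Its neighbour miR-503 lay at −0.25 ± 0.38. The seed of miR-351 is shared with miR-125a-5p and miR-125b-5p, which lay at −0.08 ± 0.27 and −0.34 ± 0.50. In the Sfmbt2 cluster 0 of 6 passed (2 and 1 unadjusted), and 6 were negative against MammU6 and 5 against the row median (151 and 100 of all 240), with miR-467a at −0.98 ± 0.44.

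The remaining lists also held few calls. Among 19 miRNAs reported in myoblast proliferation or differentiation without being restricted to muscle, miR-682 was the only one that passed, and the median was −0.21. This list was chosen with earlier results of these data known, so the place of miR-682 on it lends no support to its call. By limma, 0 of 5 passed in the miR-30 family and 0 of 2 in the miR-181 family (0 and 1 unadjusted in each). In the clusters of miR-23, miR-27 and miR-24 it was 0 of 4, in the transcript of miR-183, miR-96 and miR-182 it was 0 of 3, and in the Hox clusters 0 of 5, with 0 unadjusted in each. Among 6 miRNAs known to respond to adhesion, serum or stress 0 passed (0 and 1 unadjusted): miR-132 lay at 0.72 ± 0.39, miR-21 at −0.53 ± 0.52 and miR-210, a hypoxia miRNA, at −0.39 ± 0.33. In the transcript that carries miR-501, miR-532, miR-500 and miR-362, 1 of 6 passed against the row median (miR-501-3p), while miR-532-3p lay at 0.80 and miR-500 at −0.17 on that scale.

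No marker of fibroblasts, endothelium or blood passed. Of the fibroblast and smooth muscle markers 0 of 6 passed (limma, 1 and 2 unadjusted), 6 were negative against MammU6 and 4 against the row median (151 and 100 of all 240), and miR-143 differed most, at −1.06 ± 0.48. Against the row median every row of day 0 lay below every row of day 2 for miR-143 (−0.78 ± 0.24) and miR-152 (−0.44 ± 0.15), as for 8 of all 240 assays (3.33%). Neither passed, and the other markers of the list overlapped. The summed level of the list ran from −5.65 to −4.29 on day 0 and from −5.50 to −4.35 on day 2. The endothelial miR-126-3p lay at −0.24 ± 0.36, and the 2 assays of miR-126 summed to −10.86 to −9.58 on day 0 and −10.33 to −9.47 on day 2. Of the blood markers 0 of 5 passed (0 unadjusted under both references), with summed levels from −7.32 to −6.33 and from −7.32 to −6.00. Of the neuronal markers miR-128a passed against the row median and miR-9 lay at −1.19 ± 0.54. Of 11 assays for pluripotent cells 1 could be tested, miR-292-3p, at 0.36 ± 1.01. The summed levels of fibroblast markers overlapped between the days, and their part in the calls was not tested.

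No assay had a Ct in all 4 rows of one day and in none of the other. With at most 1 row allowed on the other day there were 2, miR-409-5p and miR-684, each with 4 rows on day 2 and 1 on day 0. miR-409-5p came at Ct 31.76, 39.35, 32.96 and 39.26 on day 2, so that rows 1 and 3 were about 6 cycles ahead of rows 2 and 4, and at 36.28 in row 1 of day 0. miR-684 came at 33.01, 36.92, 33.53 and 33.93 on day 2 and at 34.04 in row 3 of day 0. The largest difference of all 240 assays, −5.16 ± 2.85 for miR-687, also rested on rows 1 and 3 of day 2, which had a Ct of 23.23 and 23.99 while row 2 had none and row 4 had 38.12. It did not pass, and it is named here after its values were seen.

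The distance between the 2 days could be set against that between other days. For each pair of rows, the SD over the 221 assays of the median-centred Ct difference was taken. Within day 0 it had a median of 0.671 over 6 pairs of rows, and within day 2 of 0.853. Between day 0 and day 2 it was 0.940 over 16 pairs, from 0.740 to 1.19. These values overlapped those within day 2, which reached 1.09. Between day 0 and the next day of differentiation the median was 0.814, between day 0 and differentiation day 2 it was 1.19 and day 5 it was 1.59. Between the growth days it was 1.03. These are descriptions with no test, since the pairs share rows.

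**Figure D5:**
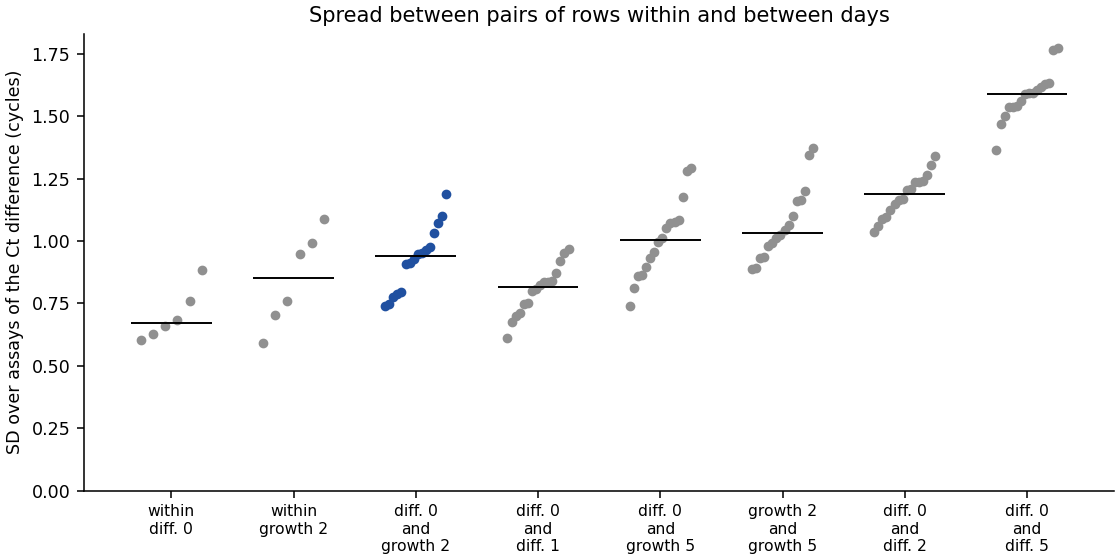
SD over 221 assays of the median-centred Ct difference (cycles, vertical axis) for each pair of rows within and between days (horizontal axis), with a line at the median. Pairs of differentiation day 0 and growth day 2 (blue, median 0.940) overlap pairs within growth day 2 (median 0.853) and lie below those of differentiation days 0 and 5 (median 1.59).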

How the data were processed

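Per the labels, total RNA was assayed by TaqMan PCR for mature miRNAs on an Applied Biosystems 7900HT for 40 cycles. The authors deposited raw Ct values per assay and row with no normalization, per the file headers. Baseline, threshold and software are not given in the sources used here. RNA had an integrity number above 9, per the labels. The 7 deposited pairs hold 6 day columns, and 8 repeat columns were identical to those they repeat. The miR-206 assay is not reported here. Depth in the sense of reads does not apply, and the number of rows limits the precision.

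Levels, the filter and the row median are as given above. Wells with no Ct were left out. All 24 rows entered a fit of 1 mean per day by lmFit and eBayes (limma 3.58.1, R 4.3.3). The fit was tested on simulated data with independent rows, which does not cover the correlation of rows of one position. Tests are two-sided, with Benjamini-Hochberg adjustment over the 240 assays and a threshold of 0.05. Rows have no numbers in the labels, so none were paired. Plots used matplotlib 3.10.9 (Python 3.11.15).

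The members and lists were chosen with earlier results of these data known. Named miRNAs are those that passed against both references (up to 20 each way) or 1 of them (up to 10 each way), all muscle-restricted ones, 2 to 4 of each list with the largest difference, those with a Ct on 1 day only, and the controls. Others are named with the reason. The alternatives were other references, Ct and well filters, rows left out, the 8 rows alone, a variance trend and other thresholds. Row position within a course as a random block (duplicateCorrelation), leaving out rows 1 and 3 of growth day 2, and the row median with the 8 rows alone or with a row left out, were added after the data were seen.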

Additional observations from a re-analysis of the deposited data

Results flagged for a closer look

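In 78 checks of a row against the other 3 rows of its day, 4 rows stood far from the others by Dixon's test. Chance flags about 1 in 20. Against MammU6, miR-128a in row 2 of growth day 2 was at −10.99, while the other rows lay between −12.17 and −12.00, and the control snoRNA135 in the same row was at −5.56, while the others lay between −6.46 and −6.35. MammU6 was latest in this row. Against the row median, miR-133a in that row was at 8.43, while the others lay between 9.59 and 9.82, and miR-494 in row 1 of differentiation day 0 was at −1.13, while the others lay between −2.30 and −2.17.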

How the results depend on the processing

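Counts are given as higher and lower on day 0, of 3 and 1 against MammU6. By reference, the row median gave 10 and 2, snoRNA135 gave 5 and 1, snoRNA202 gave 3 and 3, U87 gave 31 and 1 (with a median difference of 0.69), Y1 gave 2 and 1, and the 5 controls averaged gave 9 and 1. With a mean Ct under 32 on both days they were 0 and 0 (limma, 16 at an unadjusted p under 0.05). That filter removed miR-682, miR-208b and miR-598, each with a mean Ct above 32 on at least 1 day. Of the 4 calls only miR-203 was tested there. With the 8 rows alone they were 0 and 1, and 0 and 1 also against the row median. Without the row of latest MammU6 on each day they were 4 and 3, with a variance trend 1 and 1, and at an adjusted p under 0.01 they were 0 and 1. Without rows 1 and 3 of day 2 they were 1 and 0, and 3 and 2 against the row median. With row position within a course as a random block they were 1 and 1, and 8 and 2 against the row median, where miR-328 and miR-486 were lost. With single rows left out the higher count ran from 0 (without row 1 or 4 of day 0) to 3 and the lower count was 1; against the row median they ran from 4 to 11 and from 1 to 3. The median difference then ran from −0.37 to 0.06 against MammU6 and from 0.01 to 0.21 against the row median. With at most 1 row allowed on the other day, the assays present on 1 day only went from 0 to 2. The sign turned for miR-499, at −0.43 without the row of latest MammU6 on each day and from −0.43 to 0.84 with each of the 8 rows left out in turn, below 0 without row 1 or 4 of day 0 or row 4 of day 2. No control assay passed under any alternative run. No paired analysis was possible because the rows of the compared days share no numbers in the labels. The cause of these shifts was not tested. The 4 rows per day limit the precision, as do late Ct values for miR-208b, miR-598 and miR-486.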

Other observations

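The difference between the days was set beside one that shares no rows with it, differentiation day 5 minus day 1. Over the 221 assays with a Ct in all rows, against the row median, Pearson's r across assays was 0.14 and Spearman's rho was 0.09, and the signs matched for 114 assays. These are descriptions, since assays are not independent replicates. The SD over assays was 0.64 for day 0 against growth day 2 and 1.34 for differentiation day 5 against day 1.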
